A study of Homo sapiens with 54 samples.

Results

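After 3 h of treatment, 3 arrays of cells given an ERK1/2 inhibitor were set against the mean of 2 groups given a MEK1/2 inhibitor, trametinib or MEK162 (binimetinib), with 3 arrays in each group. These 9 arrays, of 54 in the series, were taken by their labels alone, and both MEK inhibitor groups count equally in the mean. All come from WM266-4, an established human melanoma cell line whose labelled genotype is BRAF V600D. Cells were plated in 6-well plates a day before treatment. The ERK1/2 inhibitor, which the labels do not name, was used at 0.2 uM, trametinib at 0.003 uM and MEK162 at 0.3 uM. The RAF inhibitor LGX818 (encorafenib) at 0.05 uM and DMSO, each with 3 arrays at 3 h, and the 24 h arrays of the same treatments serve below as points of reference. Each compound was used at 1 dose, and the doses differ, so a difference between compounds cannot be told apart from a difference in how far each dose blocked its target. The labels letter the arrays of each group a, b and c but do not state whether they came from separate cultures. Each p for a gene rests on a spread pooled over all inhibitor and DMSO arrays at 3 h and 24 h. It therefore covers the spread of those samples alone, and not that of the 9 arrays by themselves.

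RAF phosphorylates MEK1/2, and MEK1/2 phosphorylate and activate ERK1/2, the last kinases of the cascade. Active ERK phosphorylates transcription factors and in that way raises immediate early genes, MYC, and inhibitors of the cascade itself, the sprouty proteins and the dual specificity phosphatases, so these transcripts are widely read as a record of ERK output. A MEK inhibitor stops the activation of ERK, whereas an ERK inhibitor acts on the kinase below it. In melanoma cells with mutant BRAF the cascade is permanently on, and its feedback inhibitors are highly expressed.

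Levels are log2 values per gene, so a difference of 1 is a doubling, and a low level can be background because the table carries no detection calls. Genes were tested where at least 1 inhibitor or DMSO group averaged above 7.91 log2, the median of all gene values. That left 9645 genes of 17875. A gene was called at a Benjamini-Hochberg adjusted p under 0.05 in limma. The cells carried transcripts of their lineage: 17 of 19 melanocyte genes lay above the median over the 9 arrays, against 1 of 8 epithelial (the splicing factor ESRP1), 0 of 9 leukocyte and 1 of 10 fibroblast and endothelial markers (the VEGF receptor KDR). Summed marker levels of the ERK1/2 inhibitor arrays and of the MEK inhibitor arrays lay at 207.1 to 208.3 and 207.5 to 208.7 for melanocyte genes, at 45.0 to 46.0 and 44.8 to 45.8 for epithelial, at 46.5 to 47.5 and 46.2 to 48.1 for leukocyte, and at 52.4 to 52.7 and 51.0 to 52.5 for fibroblast and endothelial markers. ERK1/2 inhibitor array c stood apart in its control probe sets. Its 3' signal exceeded its 5' signal by 0.707 for GAPDH and 2.14 for ACTB, against 0.238 and 0.220 for GAPDH and 1.01 and 1.07 for ACTB in arrays a and b, and 0.201 to 0.313 and 0.842 to 1.22 in the 6 MEK inhibitor arrays. Between the groups the 2 measures differed with p = 0.286 and p = 0.190 in an exact two-sided permutation test over the 9 arrays, which cannot go below 0.0119. Results are therefore given with and without array c.

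With the ERK1/2 inhibitor, 6 of 12 tested genes listed as feedback inhibitors of the pathway were called higher than with the MEK inhibitors. SPRY4 and DUSP6 were among them. MYC was called higher too, and ID2 and RGS4 were called lower. Against trametinib taken by itself SPRY4 and DUSP6 were called, and SPRY1, SPRY2, DUSP4, DUSP5, MYC, ID2 and RGS4 were not. Of 9645 genes, 43 were called (0.446%), 33 higher (0.342%) and 10 lower (0.104%) with the ERK1/2 inhibitor, and 878 had an unadjusted p under 0.05. Most differences were small: SPRY4 and DUSP6 alone reached 2-fold, and 8 of the 43 were under 1.2-fold. In 32 of the 33 and 9 of the 10, every ERK1/2 inhibitor array lay beyond all 6 MEK inhibitor arrays, as did 2.05% of all tested genes upward and 1.16% downward. The exceptions were TRIB2 and PIK3C2B. Without array c, 18 genes were called (15 higher, 3 lower), of which 17 were among the 43, and all 43 kept their sign. Leaving out ERK1/2 inhibitor array a gave 24 calls, trametinib array a or c 20, and MEK162 arrays a and b 26 and 23. With only the 9 arrays in the fit, 5 genes were called, all higher. The RNA is from bulk cultures, so fewer cells with a transcript and less of it per cell cannot be told apart.

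**Figure D1:**
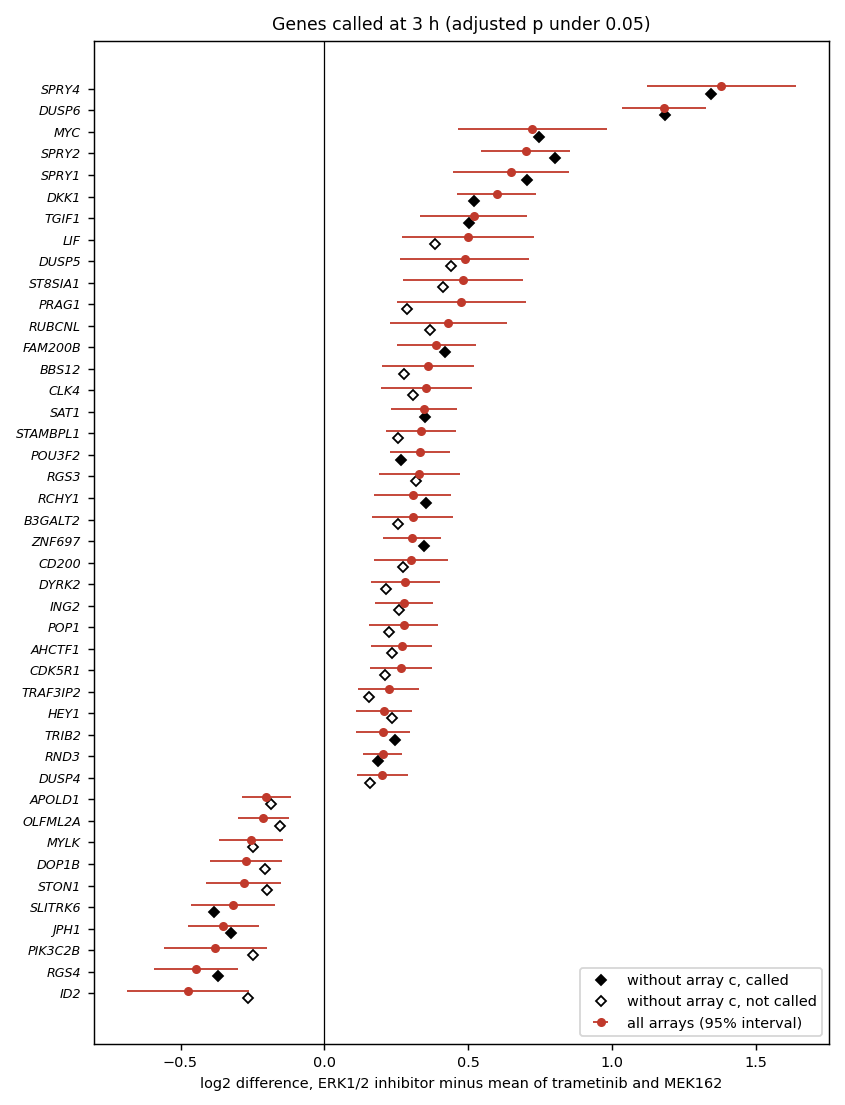
Log2 difference of the ERK1/2 inhibitor minus the mean of trametinib and MEK162 at 3 h for the 43 called genes, one gene a row. Red points with bars give the value and 95% interval with all arrays, and black diamonds the value without ERK1/2 inhibitor array c, filled where the gene was still called (17 genes). Each diamond lies on the same side of 0 as its point.

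The largest differences were in feedback inhibitors. SPRY4 (chr5:142310430-142325021, RefSeq on GRCh38.p14 as for all positions here), a sprouty protein that damps signalling from receptor tyrosine kinases to ERK, stood at 8.39, 8.20 and 8.40 log2 in ERK1/2 inhibitor arrays a, b and c, against 7.52, 6.97 and 6.78 with trametinib and 7.03, 6.61 and 6.79 with MEK162. All 3 ERK1/2 inhibitor arrays lay above all 6 others, and the trametinib arrays spread the most. The difference was 1.38 log2 (SE 0.126, 95% interval 1.12 to 1.64), or 2.60-fold, with adjusted p = 1.64e-07 in limma. In DMSO the gene stood at 13.11, 13.24 and 13.16, so each inhibitor left it far below the vehicle, and its MEK inhibitor levels, below the level used as the filter, may be near background. DUSP6 (chr12:89347235-89352501), the cytoplasmic phosphatase that dephosphorylates ERK1/2, stood at 11.09, 10.97 and 11.02 with the ERK1/2 inhibitor, 10.41, 10.28 and 10.27 with trametinib and 9.39, 9.37 and 9.36 with MEK162. Its 3 groups did not overlap and stood in that order, high to low. The ERK1/2 inhibitor exceeded the mean of both by 1.18 log2 (SE 0.0705, 95% interval 1.04 to 1.33; 2.27-fold, adjusted p = 2.19e-11). Without array c the differences were 1.34 for SPRY4 and 1.18 for DUSP6, and both stayed called (adjusted p = 4.28e-06 and 8.03e-10).

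The other sprouty genes followed. SPRY2 (chr13:80335976-80341126) stood at 11.54, 11.48 and 11.21 with the ERK1/2 inhibitor, 11.08, 11.11 and 10.87 with trametinib and 10.54, 10.40 and 10.28 with MEK162. Array c was the lowest of the ERK1/2 inhibitor arrays and lay just above the highest trametinib array. The difference was 0.70 log2 (SE 0.0745, 95% interval 0.55 to 0.85, adjusted p = 2.80e-06), and 0.80 without array c (adjusted p = 5.45e-07). SPRY1 (chr4:123396795-123403760) stood at 9.56, 9.52 and 9.38, against 9.21, 9.20 and 8.83 with trametinib and 8.60, 8.78 and 8.42 with MEK162. Again the groups did not overlap, and the difference was 0.65 log2 (SE 0.0980, 95% interval 0.45 to 0.85, adjusted p = 0.000993). Among the nuclear phosphatases, DUSP5, which acts on ERK1/2, was 0.49 log2 (SE 0.109, 95% interval 0.26 to 0.71) higher with adjusted p = 0.0384, and DUSP4, which acts on ERK and other MAP kinases, 0.20 log2 (SE 0.0432, 95% interval 0.11 to 0.29) higher with adjusted p = 0.0300. Without array c, neither phosphatase was called (adjusted p = 0.304 and 0.370).

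**Figure D2:**
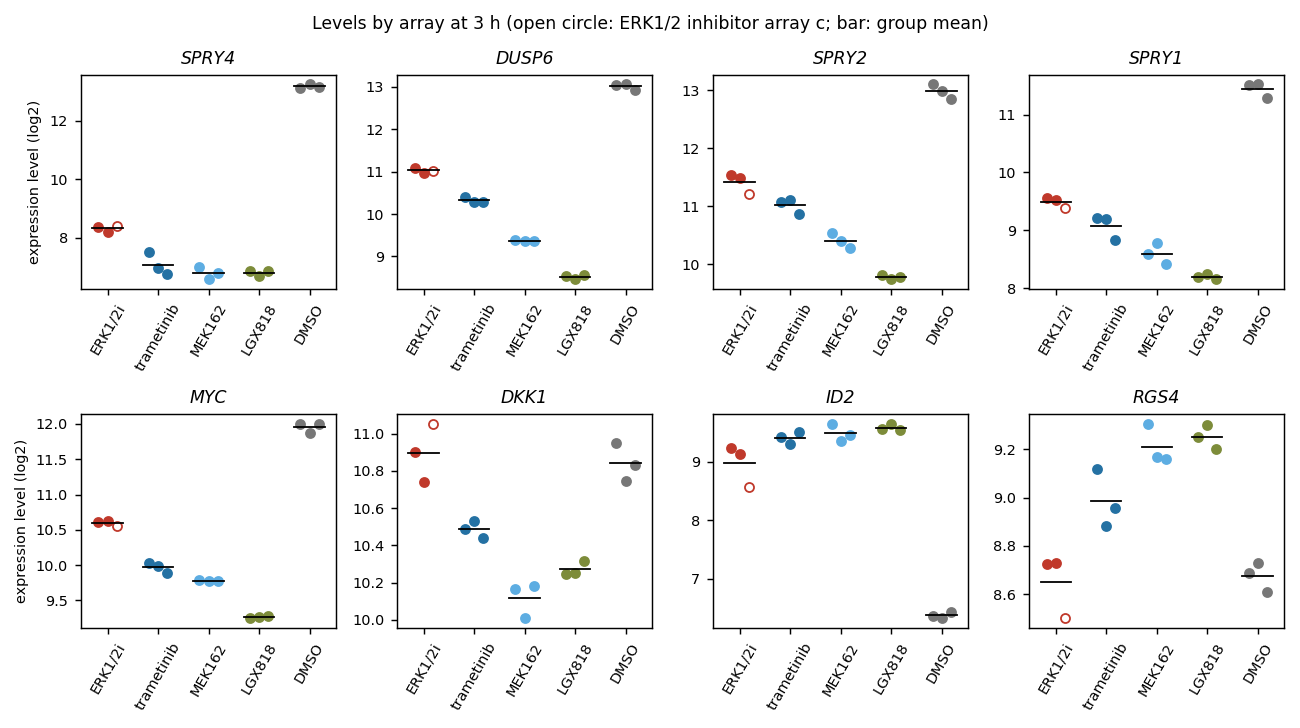
Expression level (log2) of 8 genes in each array at 3 h, with the ERK1/2 inhibitor left, then trametinib, MEK162, LGX818 and DMSO. Points are arrays, bars group means, and the open circle ERK1/2 inhibitor array c. In the 6 genes that were higher with the ERK1/2 inhibitor all 3 of its arrays lie above the 6 MEK inhibitor arrays, and in ID2 and RGS4 below them. The vertical scales differ between genes and do not start at 0.

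Of 14 genes listed as feedback inhibitors, 12 were tested, 6 were called higher (SPRY1, SPRY2, SPRY4, DUSP4, DUSP5 and DUSP6) and 0 lower, against 0.342% of all genes called higher. The median difference of the 12 was 0.27, against 0.01 over all tested genes, and all 12 values were above 0. Without array c, 4 of the 12 were called and the median was 0.33. Against trametinib taken by itself, SPRY4 and DUSP6 were the only ones of the 6 called. The members that were not called were ERRFI1 (0.27, adjusted p = 0.0667), RASA2 (0.26, adjusted p = 0.497), SPRED1 (0.15, adjusted p = 0.676), SPRED2 (0.19, adjusted p = 0.449), PHLDA1 (0.13, adjusted p = 0.546) and IER3 (0.04, adjusted p = 0.862). SPRED1 and SPRED2 block RAF activation by RAS. IER3 is an ERK target that the list counts with the inhibitors. Without array c, SPRED1 stood at 0.27, PHLDA1 at 0.25 and IER3 at 0.14, and they were not called there either. A list of 10 genes used as a score of MAPK pathway activity shares SPRY2, SPRY4, DUSP4 and DUSP6 with it. Those 4 were its called members among 9 tested, with a median of 0.20. The lists were chosen with results of these arrays known, so their counts are descriptions.

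The bases just upstream of the genes with large differences are shown because ERK-regulated factors such as EGR1 and the ETS proteins bind promoters of this kind. The 250 bases before the transcription start were read 5' to 3' on the gene's strand from RefSeq on GRCh38.p14, for 8115 of the tested genes. They were searched on both strands for the letters GCGNGGGCG (the EGR motif) and CTTTGAA (the TCF-LEF motif of WNT signalling), among others, and capitals mark matches to any motif searched. The windows lie at chr13:80341127-80341376 (minus strand), chr12:89352502-89352751 (minus strand) and chr10:52314031-52314280 (plus strand).
SPRY2: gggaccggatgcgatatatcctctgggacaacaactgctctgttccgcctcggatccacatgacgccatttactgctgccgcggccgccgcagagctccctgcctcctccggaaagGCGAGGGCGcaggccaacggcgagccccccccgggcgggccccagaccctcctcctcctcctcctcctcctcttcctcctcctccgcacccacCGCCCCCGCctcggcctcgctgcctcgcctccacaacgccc
DUSP6: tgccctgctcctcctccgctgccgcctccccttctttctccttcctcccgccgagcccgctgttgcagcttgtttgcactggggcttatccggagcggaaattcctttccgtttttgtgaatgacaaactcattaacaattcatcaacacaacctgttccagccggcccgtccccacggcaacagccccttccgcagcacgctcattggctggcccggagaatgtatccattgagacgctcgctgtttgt
DKK1: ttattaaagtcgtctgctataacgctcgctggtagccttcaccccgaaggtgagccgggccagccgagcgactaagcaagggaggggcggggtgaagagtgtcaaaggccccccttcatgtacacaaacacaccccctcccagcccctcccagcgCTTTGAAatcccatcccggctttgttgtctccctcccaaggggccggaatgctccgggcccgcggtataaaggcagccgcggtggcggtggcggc
SPRY2 held the EGR letters 134 and 41 bases before its start, DKK1 held the TCF-LEF letters 95 bases before its start, and DUSP6 held none of the motifs searched in this window. The EGR letters were in the windows of 3 of 24 genes higher with the ERK1/2 inhibitor (SPRY4, SPRY2 and TRIB2) and of 2 of 8 lower genes (DOP1B and ID2), against 14.1% of all windows. The ETS letters CCGGAAG were in 4 of 24 and 0 of 8, against 17.1%. Shorter or other forms of the ETS site were not searched. The TCF-LEF letters were in 2 of 24 (DKK1 and CD200) and 0 of 8, against 2.21%. The AP-1 letters TGANTCA stood in 1 of 24 and 1 of 8 (3.66% of all), the CRE letters TGACGTNA in 2 of 24 and 0 of 8 (4.49%), the E-box CACGTG in 2 of 24 and 0 of 8 (9.6%), and the CArG box, the site of SRF, in 1 of 24 and 1 of 8 (1.05%). CRE and E-box matches lay in the same 2 genes, CLK4 and B3GALT2, and can share bases. A match of letters is not evidence that a factor binds there.

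Transcription factors and secreted signals were also among the genes that stood higher. MYC (chr8:127735434-127742951), which drives growth and ribosome production, stood at 10.61, 10.62 and 10.55 with the ERK1/2 inhibitor, against 10.03, 9.99 and 9.89 with trametinib and 9.79, 9.78 and 9.77 with MEK162. The groups did not overlap and each was tight. The difference was 0.72 log2 (SE 0.126, 95% interval 0.46 to 0.98; 1.65-fold, adjusted p = 0.00337) and 0.74 without array c (adjusted p = 0.0276). TGIF1 (chr18:3412009-3459978), a homeodomain corepressor of TGF-beta signalling, stood at 10.54, 10.56 and 10.59, against 10.10, 10.22 and 9.87 with trametinib and 10.16, 9.83 and 10.07 with MEK162. All its ERK1/2 inhibitor arrays were above the others, by 0.52 log2 (SE 0.0906, 95% interval 0.33 to 0.71, adjusted p = 0.00337). Of 44 genes listed for the MYC network and ribosome biogenesis, 40 were tested and MYC alone was called, with a median of 0.04. In limma 10 of the 40 (25.0%) had an unadjusted p under 0.05, 8 higher and 2 lower, against 9.10% of all tested genes.

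DKK1 (chr10:52314281-52317657) encodes a secreted WNT antagonist. It stood at 10.90, 10.74 and 11.06 with the ERK1/2 inhibitor, 10.49, 10.53 and 10.44 with trametinib and 10.16, 10.01 and 10.18 with MEK162, and 10.95, 10.75 and 10.83 in DMSO. The ERK1/2 inhibitor arrays overlapped the DMSO arrays and lay above all MEK inhibitor arrays. The difference from the MEK inhibitors was 0.60 log2 (SE 0.0667, 95% interval 0.46 to 0.74; 1.51-fold, adjusted p = 5.22e-06). LIF, a cytokine of the IL-6 family, stood at 9.37, 9.17 and 9.62 with the ERK1/2 inhibitor, against 8.92, 9.14 and 9.04 with trametinib and 8.85, 8.76 and 8.63 with MEK162, a difference of 0.50 log2 (SE 0.112, 95% interval 0.27 to 0.73, adjusted p = 0.0396). The gap between the groups was narrow, the highest ERK1/2 inhibitor array was array c, and without it LIF was not called (0.38, adjusted p = 0.490). LIF was the 1 called gene of 10 tested cytokines, chemokines and NF-kB feedback genes (17 listed, median 0.10).

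Of the remaining genes higher with the ERK1/2 inhibitor, the largest differences were those of ST8SIA1, the GD3 ganglioside synthase (0.48), the pseudokinase gene PRAG1 (0.48), RUBCNL, which acts in autophagy (0.43), FAM200B (0.39), BBS12 (0.36) and CLK4, a kinase of splicing factors (0.35). Of these 6, FAM200B alone was called without array c. There ST8SIA1 stood at 0.41 (adjusted p = 0.271), RUBCNL at 0.37 (0.404), BBS12 at 0.28 (0.393) and CLK4 at 0.31 (0.312). In PRAG1 the difference leaned on 1 array: it stood at 10.29, 10.40 and 10.91, against 9.94, 10.11 and 10.04 with trametinib and 9.90, 10.10 and 10.26 with MEK162, and array c was far above a and b. Without array c its difference was 0.29 (adjusted p = 0.735). FAM200B stood at 9.66, 9.32 and 9.40, against 9.09, 9.08 and 8.98 with trametinib and 9.23, 9.04 and 8.99 with MEK162, and kept its call without array c (0.42, adjusted p = 0.0121). RND3 was 0.20 higher (SE 0.0337, adjusted p = 0.00247), and TRIB2, a pseudokinase, 0.20 (SE 0.0459, adjusted p = 0.0396). Both were called without array c too. FCGR2B, an Fc receptor gene, was called only without it (0.45, adjusted p = 0.0170, against 0.33 and 0.0884 with it).

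The called genes outside the rule for named genes, named here after their values were seen, were SAT1, STAMBPL1, POU3F2, RGS3, RCHY1, B3GALT2, ZNF697, CD200, DYRK2, ING2, POP1, AHCTF1, CDK5R1, TRAF3IP2 and HEY1, all higher, and PIK3C2B, lower. POU3F2 (BRN2), a neural transcription factor expressed in melanoma, was 0.33 higher (11.65, 11.63 and 11.84 with the ERK1/2 inhibitor, against 11.58, 11.40 and 11.44 with trametinib and 11.30, 11.26 and 11.27 with MEK162; SE 0.0507, adjusted p = 0.00106). Its 3 groups did not overlap. SAT1, the polyamine-catabolising acetyltransferase, was 0.35 higher (SE 0.0562, adjusted p = 0.00180), and HEY1, a repressor induced by Notch, 0.21 higher (SE 0.0471, adjusted p = 0.0402). Of the genes in this paragraph, SAT1, POU3F2, RCHY1 and ZNF697 were also called without array c, and the others were not. HEY1 then stood at 0.23 (adjusted p = 0.0860).

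Genes that stood lower with the ERK1/2 inhibitor were fewer, and none reached 2-fold. ID2 (chr2:8682056-8684461), a helix-loop-helix protein that holds E proteins off DNA, stood at 9.24, 9.14 and 8.56 with the ERK1/2 inhibitor, against 9.43, 9.31 and 9.51 with trametinib and 9.66, 9.36 and 9.46 with MEK162. Array c was well below a and b, and those 2 arrays lay just under the lowest MEK inhibitor array. The difference was -0.47 log2 (SE 0.103, 95% interval -0.69 to -0.26, adjusted p = 0.0300) with array c and -0.27 without it (adjusted p = 0.510), so the value moved by more than 1.5 times. RGS4 (chr1:163068871-163076802), which speeds GTP hydrolysis on G protein alpha subunits, stood at 8.73, 8.73 and 8.50, against 9.12, 8.88 and 8.96 with trametinib and 9.31, 9.17 and 9.16 with MEK162. The groups did not overlap. It was -0.45 log2 (SE 0.0716, 95% interval -0.59 to -0.30, adjusted p = 0.00172), and remained called without array c (-0.37, adjusted p = 0.0363).

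JPH1, a junctophilin that ties the endoplasmic reticulum to the plasma membrane, stood at 8.99, 8.81 and 8.82 with the ERK1/2 inhibitor, against 9.24, 9.27 and 9.16 with trametinib and 9.31, 9.22 and 9.14 with MEK162. Every ERK1/2 inhibitor array was below the others, and the difference was -0.35 log2 (SE 0.0598, 95% interval -0.47 to -0.23, adjusted p = 0.00291). SLITRK6, a neuronal transmembrane protein, was at 8.48, 8.33 and 8.61, against 8.82, 8.71 and 8.81 with trametinib and 8.82, 8.70 and 8.89 with MEK162, a difference of -0.32 log2 (SE 0.0711, 95% interval -0.46 to -0.17, adjusted p = 0.0396). Together with RGS4, these were the 3 lower genes called without array c. The other 6 were PIK3C2B (-0.38, and -0.25 without array c, a move of over 1.5 times), a class II PI3 kinase, STON1 (-0.28), DOP1B (-0.27), MYLK (-0.26), the myosin light chain kinase, OLFML2A (-0.21) and APOLD1 (-0.20).

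Several other classical ERK targets were not called, with differences near 0. EGR1, the immediate early zinc finger factor, stood at 4.77, 5.06 and 5.19 with the ERK1/2 inhibitor, 5.03, 5.29 and 4.91 with trametinib and 4.87, 5.05 and 5.62 with MEK162, and 8.28, 8.17 and 8.31 in DMSO. The groups of inhibitors overlapped, all were far below DMSO, and levels this low may be background. The difference was -0.12 (95% interval -0.43 to 0.19). EGR3 differed by 0.11 (-0.18 to 0.40), the chemokine CXCL8 by 0.003 (-0.34 to 0.35), IER3 by 0.04 (-0.10 to 0.18) and the cyclin CCND1 by 0.04 (-0.09 to 0.16), and in these the arrays of the inhibitors overlapped too. The AP-1 gene FOSL1 stood at 10.99, 11.02 and 11.42, against 10.96, 10.80 and 11.19 with trametinib and 10.59, 10.70 and 10.85 with MEK162, and its difference of 0.30 was not called (adjusted p = 0.417). Array c was the highest of its arrays, and without it the difference was 0.16 (adjusted p = 0.999). Without array c, EGR1 stood at -0.21, EGR3 at 0.24 and CCND1 at 0.09, none of them called.

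Of 21 immediate early and AP-1 genes tested (28 listed), MYC alone was called, and the median was 0.11. An unadjusted p under 0.05 in limma was seen in 7 of the 21 (33.3%), 6 higher and 1 lower. Over all tested genes the share was 9.10%, and 0.446% were called. JUN (0.16) and JUNB (-0.04) were not called. ATF3, a stress-responsive factor of that list, stood at 7.93, 7.93 and 7.55 with the ERK1/2 inhibitor, against 8.13, 8.12 and 8.07 with trametinib and 8.34, 8.35 and 8.34 with MEK162. Its ERK1/2 inhibitor arrays lay below all MEK inhibitor arrays, and the difference of -0.42 was not called (adjusted p = 0.0667). The ETS factors ETV1 (-0.01), ETV4 (-0.18) and ETV5 (0.10) were not called, nor was any of 11 tested genes of the ETS list (14 listed, median -0.02). In that list 0 genes had an unadjusted p under 0.05. Without array c ETV1 stood at 0.16, ETV4 at -0.07 and ETV5 at 0.24, the median of the list was 0.075, and no member was called. Of ID, BMP and TGF-beta targets, 10 of 17 were tested, TGIF1 was called higher and ID2 lower, and ID3 was at -0.10. Of these 10, 4 (40.0%) had an unadjusted p under 0.05 in limma, 2 higher and 2 lower. The lineage factor MITF was at -0.09 (95% interval -0.18 to -0.01, adjusted p = 0.528) and its target PPARGC1A, a coactivator of mitochondrial biogenesis, at -0.21 (adjusted p = 0.312). The iron exporter SLC40A1 was at -0.45 (adjusted p = 0.0929).

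The BCL2 family showed no call among 10 tested genes (15 listed). MCL1 was at 0.13 and PMAIP1, a BH3-only gene, at 0.32, with 0.52 for PMAIP1 without array c (adjusted p = 0.209), and BMF, a BH3-only killer, at -0.28, averaging 8.25 ± 0.162 with the ERK1/2 inhibitor, 8.14 ± 0.394 with trametinib and 8.90 ± 0.172 with MEK162 (SD, n = 3 each). The MEK162 arrays of BMF lay above all others, and the trametinib arrays overlapped the ERK1/2 inhibitor arrays. CXCL1 was at 0.33 (adjusted p = 0.685) and MAPK3, which encodes ERK1, at -0.06. Of 36 genes followed by name, 33 were tested, since FOS and ID1 lay below the filter and EGR2 had no named probe set. Of these 33, 8 were called higher and 1 lower, against 0.342% and 0.104% of all tested genes. For 18 of the 24 not called the 95% interval stayed within 0.5 log2 of 0. Called genes had median differences of 0.34 (higher) and -0.30 (lower), so this bound does not set the 24 apart from them. In limma PMAIP1, FOSL1, SPRED2, JUN, MCL1 and PHLDA1 had an unadjusted p under 0.05 with higher values. MITF, PPARGC1A, ATF3 and SLC40A1 did with lower values, as did 9.10% of all tested genes in either direction.

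**Figure D3:**
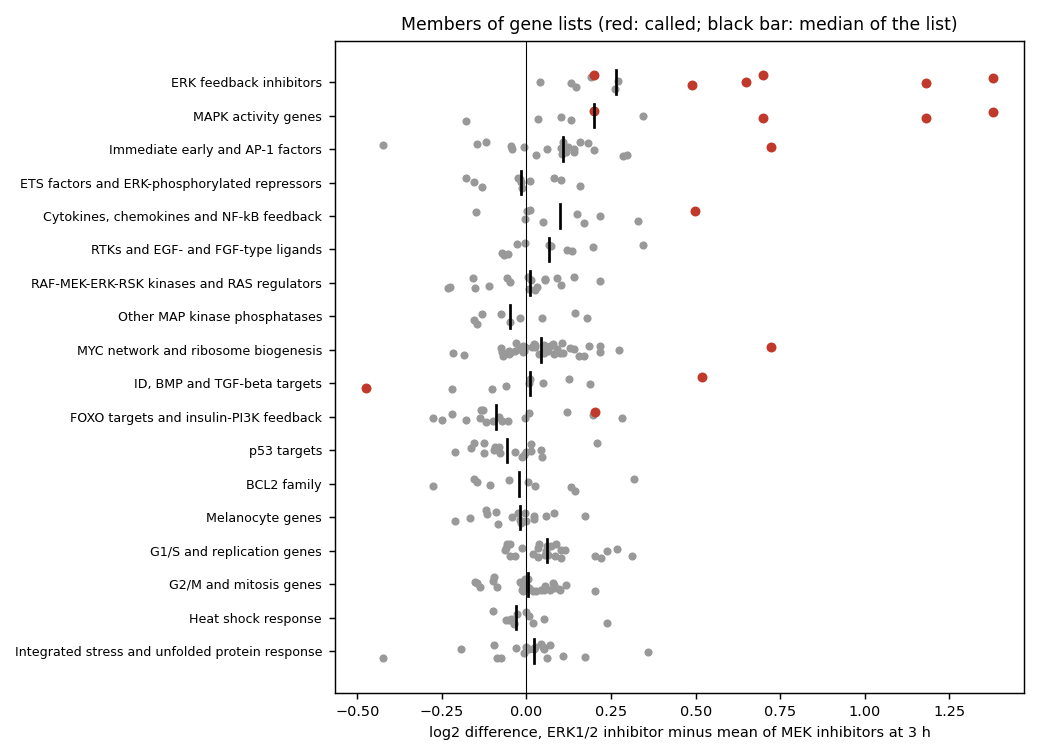
Log2 difference of the ERK1/2 inhibitor minus the mean of trametinib and MEK162 at 3 h for each tested member of 18 gene lists. Each point is a gene, red where called, and the black bar is the median of the list. The list of feedback inhibitors holds 6 red points and a median of 0.27, and the medians of the cell cycle, stress and melanocyte lists lie near 0.

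In 23 of the 31 lists, the ETS and BCL2 lists among them, no tested gene was called. The rest of these were other MAP kinase phosphatases, RAF-MEK-ERK-RSK kinases and RAS regulators, receptor kinases and their ligands, D-type cyclins and CDK inhibitors, G1/S, G2/M and replication-dependent histone genes, p53 targets, the integrated, heat and oxidative stress responses, sterol and fatty acid synthesis, glycolysis and hypoxia, lysosome and autophagy, YAP-TEAD and SRF targets, interferon and antigen presentation, ERK-dependent membrane and matrix genes, melanocyte genes, and the 3 lists of other cell types. Their medians lay between -0.06 and 0.10. Of the 306 tested genes in these lists, 0 were called in limma and 41 (13.4%) had an unadjusted p under 0.05, against 43 (0.446%) and 878 (9.10%) of all tested genes. The FOXO and insulin list (18 of 23 tested, median -0.09) held the call of TRIB2 alone, and the list of short-lived transcripts (18 of 21 tested, median -0.02) that of RND3 alone. In limma 9 of the 18 FOXO and insulin genes had an unadjusted p under 0.05, 3 higher and 6 lower. Without array c the median of that list was -0.001. Among the 18 short-lived transcripts 5 had an unadjusted p under 0.05, 1 higher and 4 lower.

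Each MEK inhibitor was also taken by itself. Against trametinib 6 genes were called (0.0622%), 5 higher (0.0518%) and 1 lower (0.0104%). Against MEK162 51 were called (0.529%), 38 higher (0.394%) and 13 lower (0.135%). The 5 genes called against both, in the same direction, were SPRY4, DUSP6, DKK1, FAM200B and JPH1. SPRY4 was 1.24 above trametinib and 1.52 above MEK162, DKK1 0.41 and 0.78, FAM200B 0.41 and 0.37, and JPH1 -0.35 and -0.35. The remaining gene called against trametinib was ING2 (0.37, adjusted p = 0.00235), against 0.19 over MEK162 (adjusted p = 0.240). MYC was 0.63 above trametinib (adjusted p = 0.102) and 0.82 above MEK162 (adjusted p = 0.00429). Against trametinib in limma, SPRY1 stood at 0.41 (adjusted p = 0.165), DUSP5 at 0.43 (0.204) and DUSP4 at 0.20 (0.117). ID2 stood at -0.435 (0.156) and RGS4 at -0.33 (0.112) there, and none of these was called. Against MEK162, SPRY1, DUSP5, ID2 and RGS4 were called and DUSP4 was not (0.21, adjusted p = 0.0624). All 33 higher genes had a positive difference and all 10 lower genes a negative one against each MEK inhibitor, of which 25 and 6 were called against MEK162. With only the 6 arrays of each pair in the limma fit, 0 genes were called against trametinib (473 at an unadjusted p under 0.05) and 4 against MEK162. Leaving out 1 array gave 3 to 21 genes against trametinib, with 3 without its array a or c and 21 without its array b. Against MEK162 it gave 23 to 66, with 24 without ERK1/2 inhibitor array c and 29, 23 and 25 without MEK162 arrays a, b and c.

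Trametinib and MEK162 themselves differed in 4 genes (0.0415%), 3 higher with trametinib (0.0311%) and 1 lower (0.0104%). DUSP6 was 0.95 higher with trametinib than with MEK162 (SE 0.0814, adjusted p = 8.49e-08) and SPRY2 0.61 higher (SE 0.0861, adjusted p = 0.000779). The others, named after their values were seen, were FRMD4A at 0.29 and DDIT4, a stress-induced inhibitor of mTORC1, at -0.25. For DUSP6 the ERK1/2 inhibitor was 0.71 above trametinib and 1.65 above MEK162, and for SPRY2 0.39 (adjusted p = 0.0770) and 1.004.

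Set beside DMSO, most of the 43 genes had left the vehicle level in 1 direction under both kinds of inhibitor, and less far under the ERK1/2 inhibitor. These values share the DMSO arrays, and the contrast itself chose the genes, so they are descriptions. Of the 33 higher genes, 21 were called below DMSO with the ERK1/2 inhibitor (4.88% of all tested genes) and 31 with the MEK inhibitors (7.77%). Of the 10 lower genes, 5 were called above DMSO with the ERK1/2 inhibitor (5.47%) and 9 with the MEK inhibitors (7.52%). SPRY4 stood -4.84 from DMSO with the ERK1/2 inhibitor and -6.22 with the MEK inhibitors, DUSP6 -1.99 and -3.16, SPRY2 -1.58 and -2.28, MYC -1.37 and -2.09, and ID2 2.61 and 3.08. The ERK1/2 inhibitor mean lay between DMSO and the MEK inhibitor mean in 27 of the 33 higher and 7 of the 10 lower genes, and in 36.0% of all tested genes. EGR1 stood -3.25 from DMSO with the ERK1/2 inhibitor and -3.13 with the MEK inhibitors, CXCL8 -3.16 and -3.16, EGR3 -2.65 and -2.76, and IER3 -1.58 and -1.61.

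A few genes had another pattern. DKK1 stood 0.06 from DMSO with the ERK1/2 inhibitor (adjusted p = 0.664) and -0.54 with the MEK inhibitors (adjusted p = 6.86e-07). RGS4 stood at -0.02 (adjusted p = 0.879) and 0.42 (adjusted p = 8.13e-05), and SAT1 at 0.01 and -0.33. FAM200B and ING2 rose over DMSO with the ERK1/2 inhibitor, by 0.32 (adjusted p = 0.00580) and 0.29 (adjusted p = 0.000648), beside -0.07 and 0.02 with the MEK inhibitors, neither of them called. In all, 999 genes were called between the ERK1/2 inhibitor and DMSO (10.4%) and 1474 between the MEK inhibitor mean, which rests on 6 arrays, and DMSO (15.3%).

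The RAF inhibitor LGX818 gives a comparison whose means use none of the 9 arrays. Its calls share the spread estimated in the same fit, which includes those arrays, so they are not fully separate. Against DMSO at 3 h, 31 of the 33 higher genes fell with LGX818 and 0 rose, while 6.46% of all tested genes fell. Of the 10 lower genes 8 rose and 0 fell, while 5.22% of all tested genes rose. SPRY4 stood -6.36 log2 from DMSO, DUSP6 -4.49, SPRY2 -3.21 and MYC -2.70, while ID2 rose by 3.22, STON1 by 1.41 and SLITRK6 by 1.26. The 4 genes not called were FAM200B (-0.03), ING2 (0.06), DOP1B (0.16) and APOLD1 (-0.07). CXCL8, EGR1 and EGR3 fell with LGX818 as well but were not called in the contrast. CXCL8 stood -3.30 from DMSO, EGR1 -3.28 and EGR3 -2.60, beside contrasts of 0.003, -0.12 and 0.11.

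**Figure D4:**
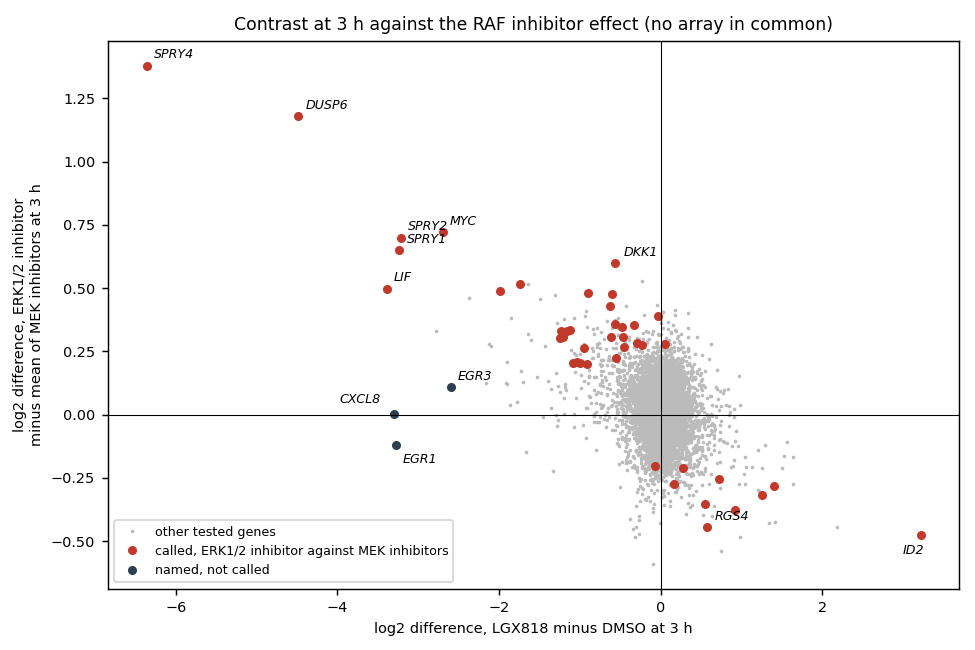
Log2 difference of LGX818 minus DMSO at 3 h (x axis) against the log2 difference of the ERK1/2 inhibitor minus the mean of trametinib and MEK162 at 3 h (y axis), one point a tested gene. The called genes (red) fill the upper left and lower right, with SPRY4 at -6.36 and 1.38 and ID2 at 3.22 and -0.47. CXCL8, EGR1 and EGR3 (dark) fell as far as several red genes and lie near 0 on the y axis.

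At 24 h, on other arrays of the same treatments, the contrast called 479 genes (4.97%), 361 higher (3.74%) and 118 lower (1.22%). These calls rest on a spread estimated together with the 3 h arrays, so they are not fully separate from those at 3 h. Among the 33 genes higher at 3 h, 16 were called higher again, 0 were called lower, and 31 had a positive value. Among the 10 lower genes 1, MYLK, was called lower again (-0.28, adjusted p = 0.00153), and 4 had a positive value. DUSP6 averaged 11.58 ± 0.130 with the ERK1/2 inhibitor at 24 h, against 11.38 ± 0.0878 with trametinib and 10.57 ± 0.0459 with MEK162 (SD, n = 3 each), a contrast of 0.60 (adjusted p = 3.10e-06). SPRY4 averaged 8.997 ± 0.120, against 8.96 ± 0.184 with trametinib and 8.05 ± 0.119 with MEK162, a contrast of 0.49 (adjusted p = 0.0202). In both genes the MEK162 mean was the lowest of the 3.

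SPRY1 (0.61), MYC (0.56), SPRY2 (0.53), TGIF1 (0.46), DKK1 (0.38) and CD200 (0.53) were called higher at 24 h as well, whereas DUSP5 (0.01), LIF (0.34) and DUSP4 (0.11) were not. In each of those called, the MEK162 mean at 24 h was the lowest of the groups compared. The 24 h contrast was not tested against each MEK inhibitor separately. The change of the contrast between the times was itself called in 73 genes (0.757%), 66 upward (0.684%) and 7 downward (0.0726%). Among the genes called at 3 h these were SPRY4 (-0.89, adjusted p = 0.0102), DUSP6 (-0.58, 0.00286) and CLK4 (-0.51, 0.0207), whose contrast was smaller or turned at 24 h, and RGS4 (0.62, 0.00192), JPH1 (0.46, 0.00540) and APOLD1 (0.24, 0.0467), which stood at 0.17, 0.11 and 0.04 at 24 h, none of them called there. Some ERK targets not called at 3 h were called higher at 24 h, among them CCND1 (0.38, adjusted p = 0.000157), ETV1 (0.60, 0.00242) and ETV5 (0.62, 0.0146). With the ERK1/2 inhibitor, trametinib and MEK162 at 24 h, CCND1 averaged 10.88, 10.81 and 10.195. ETV1 averaged 6.40, 6.33 and 5.25, and ETV5 9.015, 8.96 and 7.82. In these genes trametinib lay close to the ERK1/2 inhibitor, and MEK162 lay well below both. For CCND1 the change between the times was called (0.34, adjusted p = 0.0461), and for ETV1 and ETV5 it was not (0.109 and 0.517).

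**Figure D5:**
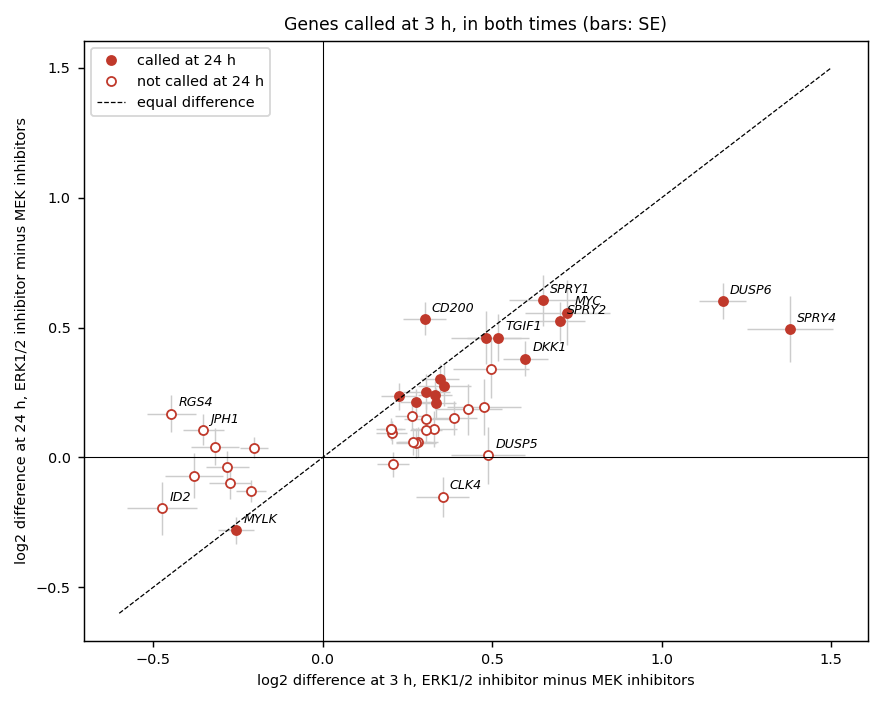
Log2 difference of the ERK1/2 inhibitor minus the mean of trametinib and MEK162 at 3 h (x axis) and at 24 h (y axis) for the 43 genes called at 3 h, with bars of 1 SE. Filled points were called at 24 h (17 genes), and the dashed line marks equal differences. SPRY4 and DUSP6 lie well below the line, and the genes with negative values at 3 h lie between -0.28 (MYLK) and 0.17 (RGS4) at 24 h, with ID2 at -0.20 and OLFML2A at -0.13.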

How the data were processed

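Total RNA of the cells was labelled with biotin and measured on Affymetrix arrays. What the authors deposited is 1 log2 level for each probe set and array. RMA and affy are the tools that the submitters' processing notes name, without versions. RMA sets all arrays to 1 distribution, so a change common to most genes is not visible. Neither a chip definition nor a build is given in the sources used here. The table holds 18989 probe sets: 62 controls, 17875 with 1 gene symbol, and 1052 that the probe table does not name and that were not used. Levels lay between 2.51 and 14.77 log2, and the median level of an array between 7.78 and 8.04. Arrays of 1 group among the 9 correlated at 0.9947 to 0.998, and 0 pairs were identical. The number of arrays limits the precision.

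A model with 1 mean per group was fitted to the 30 inhibitor and DMSO arrays in R 4.3.3 with limma 3.58.1 (lmFit, eBayes with an intensity trend), which left 20 residual degrees of freedom, and p-values were adjusted over all tested genes. Groups were taken from the labels, some of which spell MEK162 as MER162. The test was checked on simulated data with independent normal noise, equal in all groups. That check therefore does not cover an array like c or deviations shared between arrays. The genes, the rule and the lists were chosen with earlier results of these data known. Named genes were the 15 largest called differences each way whose arrays did not overlap, called members of 31 gene lists (up to 3 each way), genes called only without array c (up to 5 each way) and 36 genes followed by name. Alternatives changed the arrays in the fit, the filter, the trend, array weights, a 3' minus 5' covariate, centring, a fold threshold and a replicate block. The filter at the median of all probe sets, gene-by-gene weights and a fit of the 3 h arrays without array c were chosen after seeing the data. The array letters were not treated as pairs, since the deviations of same-letter arrays from their group means did not all correlate above 0.1: at 3 h the correlations spanned -0.041 to 0.672, and among 24 h arrays they spanned -0.269 to 0.172. Between the ERK1/2 inhibitor and MEK162 at 3 h all 3 letters did (0.258 to 0.672). Between the ERK1/2 inhibitor and trametinib at 3 h the correlations were 0.386, 0.098 and 0.534 for a, b and c. The value of -0.041 lay between trametinib and MEK162. Letters may therefore share deviations in the main contrast, and its block values are given with the alternatives. The 24 h and LGX818 arrays were used as independent arrays, and the shRNA arrays only in the fit of all 54.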

Additional observations from a re-analysis of the deposited data

Results flagged for a closer look

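Some contrasts differed between the times or between the MEK inhibitors by the test of the difference itself in limma. From 3 h to 24 h, the ERK1/2 inhibitor minus MEK inhibitor contrast changed by -0.885 for SPRY4 (SE 0.178, adjusted p = 0.0102), by -0.576 for DUSP6 (SE 0.0996, adjusted p = 0.00286) and by -0.505 for CLK4 (SE 0.11, adjusted p = 0.0207). CLK4 had a contrast of 0.35 at 3 h and -0.15 at 24 h, the second not called. In the other direction it changed by 0.615 for RGS4 (SE 0.101, adjusted p = 0.00192), by 0.458 for JPH1 (SE 0.0845, adjusted p = 0.0054), by 0.344 for CCND1 (SE 0.0832, adjusted p = 0.0461) and by 0.239 for APOLD1 (SE 0.0582, adjusted p = 0.0467).

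Trametinib exceeded MEK162 at 3 h by 0.949 for DUSP6 (SE 0.0814, adjusted p = 8.49e-08) and by 0.611 for SPRY2 (SE 0.0861, adjusted p = 0.000779), with no overlap of their arrays. Groups of 3 arrays are too small for a test of single outlying arrays. ERK1/2 inhibitor array c, with its raised 3' minus 5' signal, was the lowest of its group for ID2 and SPRY2 and the highest for PRAG1 and LIF, and its part in these values beyond the values without it was not tested.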

How the results depend on the processing

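The count of 43 genes was 45 with all 54 arrays in the fit, 38 without the intensity trend, 44 with a stricter filter, 40 with arrays centred and 43 with the filter at the median of all probe sets. It was 5 with only the 9 arrays compared, 19 with only the 15 arrays at 3 h, 28 with no filter, 27 with the 3' minus 5' covariate, 4 when tested against a fold threshold of 0.25 log2, 1661 with array weights, 276 with gene-by-gene weights, 6 without array c in the 3 h arrays only, and 5 when a call was asked against each MEK inhibitor separately. The array weights stopped before their convergence tolerance and gave ERK1/2 inhibitor array c a weight of 0.140. Leaving out 1 array at a time gave 18 to 54: 24 and 18 without ERK1/2 inhibitor arrays a and c, 20 without trametinib array a or c, and 26 and 23 without MEK162 arrays a and b. Against trametinib (6 genes) the count was 0 in its 2 groups alone (473 at an unadjusted p under 0.05), 31 with all 54 arrays, 2598 with array weights, and 3 to 21 leaving out 1 array, 3 without trametinib array a or c and 21 without b. Against MEK162 (51) it was 4 in its 2 groups alone, 21 in the 15 arrays at 3 h, 667 with array weights, and 23 to 66 leaving out 1 array, 24 without ERK1/2 inhibitor array c and 29, 23 and 25 without MEK162 arrays a, b and c. Trametinib against MEK162 gave 1 in its 2 groups alone. With the array letters as a replicate block the contrast called 50 genes, 8 against trametinib, 49 against MEK162, 82 for the change between times, and 737 in place of 479 at 24 h. DKK1, DUSP6, MYC, SPRY2 and SPRY4 were called in all 22 settings other than the fold threshold, where MYC was not (adjusted p = 0.743), and the separate calls, where MYC and SPRY2 were not, 13 of the 43 in each leave-one-out, and none of the 43 turned its sign. Signs turned only in genes called in neither setting. CXCL8 was at -0.168 with array weights, -0.078 with the covariate, -0.01 with arrays centred, -0.093 with gene-by-gene weights, -0.08 without array c in the 3 h arrays, and -0.08 to 0.143 leaving out 1 array. ETV1 was at 0.097 with either kind of weights, 0.136 with the covariate, 0.16 without array c in the 3 h arrays, and -0.112 to 0.16 leaving out 1 array. ID3 was at 0.032 with the covariate, 0.003 without array c in either fit (-0.165 to 0.003), BMF at 0.009 with array weights, and IER3 -0.014 to 0.135 leaving out 1 array. The cause of these changes was not tested.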

Other observations

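Cell cycle genes had no call in the contrast at 3 h and many at 24 h. Of 26 tested G1/S and replication genes, 0 were called at 3 h in limma (2 at an unadjusted p under 0.05) and 19 were higher with the ERK1/2 inhibitor at 24 h, with medians of 0.06 and 0.42. Of 28 G2/M and mitosis genes, 0 were called at 3 h (0 at an unadjusted p under 0.05) and 23 were higher at 24 h, with medians of 0.01 and 0.42. Over all tested genes the medians were 0.01 and 0.03, and 33 (0.342%) and 361 (3.74%) genes were called higher. The median of the 10 tested genes for D-type cyclins, CDK inhibitors and RB was -0.01 at 3 h and 0.05 at 24 h, with 0 and 1 called higher. The 24 h contrast uses the mean of trametinib and MEK162 and was not tested against each separately. These counts therefore do not show whether the genes differed from both MEK inhibitors. No list p was computed.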
